A study of Mus musculus with 48 samples.

Results

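The proteasome subunit genes are the 43 protein-coding mouse genes, of 21887 in the annotation, whose symbol is Psma, Psmb, Psmc, Psmd or Psme followed by a number. Psmc3ip, Psme2b and Psme3ip1 carry other endings and were not members. By role the 43 comprised 7 alpha ring genes and the testis alpha gene Psma8, 7 beta ring genes, the 3 immunoproteasome genes Psmb8, Psmb9 and Psmb10 and the thymus gene Psmb11. The cap of the enzyme was represented by 6 ATPase genes and 11 other subunit genes, beside the 3 assembly chaperone genes Psmd5, Psmd9 and Psmd10 and the 4 activator genes Psme1, Psme2, Psme3 and Psme4. Each gene was described by what lay within 1 kb of either of its ends on mm10, since strand was not known for every member. For 11 members the end marked by H3K4me3 lay within 1 kb of an end of another protein-coding gene, and ChIP signal there cannot be assigned to one of the pair.

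The study profiled mouse embryonic stem cells by ChIP-seq in 48 samples, 2 libraries for each of 24 combinations of target and genotype. The wildtype was the Ainv15(iCre) line. The knockout lines were iZbtb11-HA Zbtb11KO, iZfp131-HA Zfp131KO and a double line, iZbtb11-HA iZfp131-V5 Zbtb11KO Zfp131KO, in which the endogenous zinc finger genes are deleted and a tagged copy is switched on by doxycycline. NELF, SETD1A, CHD4, SIN3A, RNA polymerase II phosphorylated at serine 5 (POL2S5P), H3K4me3, H3K27ac and H3K27me3 were measured after 3 days without doxycycline in medium with LIF and without the 2i inhibitors, so the knockout cells lacked the factor. HA was measured after 3 days with doxycycline and with 2i, so binding and the effect of the deletion were seen in different media and at different factor levels. Each genotype is named as 1 line, so a knockout and a difference between lines cannot be told apart. The labels do not say that the 2 libraries of a group were separate cultures, and p-values then measure a spread that may be technical.

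The lists and tables hold values of pooled libraries, with no value per library, so no standard deviation over libraries can be given for a single gene. Event lists rested on totals between 24 and 71.6 M reads (M, mega), and their share of reads in events ran from 5.1% (NELF, double knockout) to 33.3% (SIN3A, wildtype). Domain lists give no library totals. The cells were checked against marker genes: 7 of 8 embryonic stem cell markers had wildtype H3K4me3 (all but Esrrb) and all 8 had POL2S5P. Of 6 fibroblast markers 4 had H3K4me3, 0 had H3K27ac and 0 had POL2S5P, and of 4 immune markers 1 had H3K4me3, with 23 reads. Summed H3K4me3 reads over the stem cell markers were, in the order wildtype, Zbtb11KO, Zfp131KO and double knockout, 41013, 24962, 24228 and 48338. Over 6 primitive endoderm markers they were 3074, 5343, 8210 and 32812. Of these 6 markers 5 had wildtype H3K27me3 and 1 had wildtype H3K27ac, and the sums are not scaled to library size. Whether primitive endoderm cells were present, and what part they had in the results below, was not tested.

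The proteasome is the main protease for proteins tagged with ubiquitin. Its core is a barrel of alpha rings, which gate the entrance, and beta rings, which hold the cutting sites, and its cap recognises, unfolds and feeds in the substrate. Immune signals exchange the cutting subunits for those of the immunoproteasome, and activators such as the nuclear Psme3 protein can take the place of the cap. The subunits are made in matched amounts, and the genes of the constitutive particle are active in nearly all cells. In embryonic stem cells high proteasome activity accompanies the pluripotent state. ZBTB11 and ZFP131 are zinc finger proteins, and NELF holds RNA polymerase II in a paused state just after it has started.

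The promoters of 4 members are shown because these genes had the strongest binding or the largest changes described below. They are RefSeq sequences of GRCm38.p6, which is mm10, from 250 bases before to 50 bases after the start site, written along the gene. Psmc2 (chr5:21785025-21785324, + strand) had the most ZBTB11 reads and Psme3 (chr11:101315963-101316262, + strand) the most ZFP131 reads and the largest called fall of H3K27ac. Psma4 (chr9:54950609-54950908, + strand) had the largest called rise of H3K27ac, and Psmb9 (chr17:34187281-34187580, − strand) was added after its values had been seen, for its gain of H3K4me3. The called rise at Psma4 came from a region of 46 bp that lies outside its printed stretch. Capitals mark letters that match any of 6 motifs on either strand, named below.
Psmc2: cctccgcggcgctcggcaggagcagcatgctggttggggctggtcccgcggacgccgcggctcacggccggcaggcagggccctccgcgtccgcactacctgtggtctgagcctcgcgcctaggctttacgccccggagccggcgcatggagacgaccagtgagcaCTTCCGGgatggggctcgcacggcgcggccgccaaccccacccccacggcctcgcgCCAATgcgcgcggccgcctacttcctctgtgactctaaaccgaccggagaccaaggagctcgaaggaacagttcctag
Psme3: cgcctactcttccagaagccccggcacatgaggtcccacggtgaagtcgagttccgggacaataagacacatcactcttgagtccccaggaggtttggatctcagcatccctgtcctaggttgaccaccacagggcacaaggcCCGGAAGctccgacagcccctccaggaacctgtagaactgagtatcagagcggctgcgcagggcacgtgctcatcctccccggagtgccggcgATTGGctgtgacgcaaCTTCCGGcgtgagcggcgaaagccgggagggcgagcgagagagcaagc
Psma4: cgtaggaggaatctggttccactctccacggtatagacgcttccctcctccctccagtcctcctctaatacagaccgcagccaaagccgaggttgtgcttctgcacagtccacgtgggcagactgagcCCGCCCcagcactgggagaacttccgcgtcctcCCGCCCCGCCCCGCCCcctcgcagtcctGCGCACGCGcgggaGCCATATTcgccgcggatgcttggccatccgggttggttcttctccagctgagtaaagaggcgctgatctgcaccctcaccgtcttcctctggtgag
Psmb9: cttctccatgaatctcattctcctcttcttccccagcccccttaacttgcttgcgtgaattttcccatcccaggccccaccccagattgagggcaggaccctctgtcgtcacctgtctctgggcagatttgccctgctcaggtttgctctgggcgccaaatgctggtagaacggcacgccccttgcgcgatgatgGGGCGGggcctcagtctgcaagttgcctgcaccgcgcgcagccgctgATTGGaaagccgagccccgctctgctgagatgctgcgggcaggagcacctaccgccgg
In Psmc2 the capitals are an ETS match (CCGGAAG) and a CCAAT box, and in Psme3 they are 2 ETS matches and a CCAAT box. Psma4 holds an NRF1 match (GCGCANGCG), a YY1 match (GCCATNTT) and 4 SP matches (GGGCGG), and Psmb9 an SP match and a CCAAT box.

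Promoter sequences were matched for 36 of the 43 members. There was none for Psma8, Psmb1, Psmb2, Psmb7, Psmc3, Psmd3 and Psmd7. ETS letters occurred in 11 of the 36 (30.6%), against 11.7% of 20997 promoters of the same length and 15.4% of the 14491 that belong to genes with H3K4me3. The 11 were 3 ATPase genes, 6 other cap genes and 2 activator genes, with no alpha or beta ring gene among those searched. The beta ring genes Psmb1, Psmb2 and Psmb7 were not searched. This split was noticed after the search and not tested. YY1 letters occurred in 6 (16.7%), against 6.41% and 7.27%, and NRF1 letters also in 6 (16.7%), against 8.65% and 11.5%. The antioxidant response element (TGACNNNGC), through which NRF factors of the stress response act, was found in 6 members as well (16.7%), among them the catalytic genes Psmb5 and Psmb6, against 13.0% and 13.9%. The CCAAT box was found in 14 (38.9%), against 38.1% and 37.6%, and SP letters in 22 (61.1%), against 46.6% and 60.9%. Matches of different motifs were allowed to overlap, and a match describes letters only.

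In wildtype cells the genes of the constitutive particle carried the marks of active promoters. All 7 beta ring genes, all 6 ATPase genes and all 11 other cap genes had H3K4me3, NELF, H3K27ac, POL2S5P and SIN3A within 1 kb. Over the 43 members, H3K4me3 was listed at 42 (97.7%, against 64.2% of all protein-coding genes), with 245 reads at Psmb11, a median of 3549 over the 42 and 7007 at Psmc5. NELF was listed at 40, SIN3A at 41, POL2S5P at 39 and H3K27ac at 39. SETD1A, a subunit of an H3K4 methyltransferase, was listed at 35. Among the genes with H3K4me3 the shares were 87.5% for NELF, 88.9% for SIN3A, 80.8% for POL2S5P, 68.4% for H3K27ac and 65.3% for SETD1A. The member with the most NELF was the assembly chaperone gene Psmd5, at 2331 reads, and the one with the most POL2S5P was Psmc5, at 5278. CHD4, the ATPase of the NuRD complex, was listed at 6 members (14.0%), against 11.3% of all protein-coding genes and 16.7% of those with H3K4me3. Its reads ran from 37.2 at Psmb8 to 94.1 at Psma7.

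H3K27me3, the Polycomb mark, lay at 3 members in wildtype (6.98%), against 24.6% of all protein-coding genes and 34.5% of those with H3K4me3. All 3 were genes of immune or thymus proteasomes, with 1280 reads at Psmb8, 882 at Psmb9 and 306 at Psmb11. The end of Psmb9 lay 226 bp from Tap1, a peptide transporter gene of antigen presentation, and an end of Psmb8 970 bp from the same gene. Psmb9 had 1658 reads of H3K4me3 beside its H3K27me3, and Psmb8 had 282. H3K27ac was listed at neither. Psmb10, the third immunoproteasome gene, had 2094 reads of H3K4me3, 44 of H3K27ac and no listed H3K27me3.

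Psma6 was the member without wildtype H3K4me3 at a gene end. Its gene model starts 14603 bp before a second RefSeq start site, and the marks lay at that second site, within 1 kb of which 4460 wildtype reads of H3K4me3, 1444 of NELF, 1098 of POL2S5P and 1030 of ZBTB11 were listed. Psma3 was a like case, with its RefSeq start site 5340 bp inside the gene model. There H3K4me3 had 4895 wildtype reads, against 1917 at the outer end. The counts below use gene ends, and the values at these inner sites are given where they differ.

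HA-ZBTB11 was found at most proteasome genes and was strong at few of them. Events lay at 33 of 43 members (76.7%), against 35.9% of all protein-coding genes and 53.4% of those with H3K4me3. Summed reads ran from 40.9 at Psmb9 to 3051 at Psmc2, with a median of 173, and 4 members exceeded 1000 reads. Those were the ATPase genes Psmc2 with 5 events and 3051 reads and Psmc1 with 4 events and 2265 reads, the activator gene Psme3 with 4 events and 1688 reads, and Psmd2, a scaffold gene of the cap, with 2 events and 1482 reads. They were followed by the beta ring genes Psmb4 at 565 and Psmb1 at 465. Among all genes with an event, 8.55% exceeded 1000 reads, and the median was 120. All 6 ATPase genes, all 4 activator genes and 10 of 11 other cap genes had an event, and 0 of the 3 assembly chaperone genes did. Where a start site was known, the highest event lay within 250 bp of it in 17 of 26 members, at a median distance of 193 bp. In Psmc2 it lay 38 bases after the start, with 2193 reads, and in Psmc1 9 bases after, with 1289 reads. The 10 members with no event at a gene end were Psma1, Psma2, Psma6, Psmb6, Psmb8, Psmb11, Psmd4, Psmd5, Psmd9 and Psmd10, of which Psma6 had 1030 reads at its inner start site. When only events at or above the median fold of the list were kept, 13 members remained, against 17.3% of all genes.

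HA-ZFP131 was found at 9 members (20.9%, against 15.3% of genes with H3K4me3 and 10.2% of all genes). The highest reads were at Psme3, with 5 events and 3034 reads, and at the beta ring gene Psmb2, with 3 events and 2202 reads. Psma7 of the alpha ring had 753 reads and the assembly chaperone gene Psmd5 583. Psmb1 had 201, the catalytic gene Psmb5 188, the cap genes Psmd7 188 and Psmd3 109, and Psme4, an activator gene, 99.9. No ATPase gene had an event. Of the 9, 8 also had ZBTB11, and Psmd5 had ZFP131 alone. The factors differed in their leading genes: Psmb2 had 97.8 reads of ZBTB11, and the 2 genes with the most ZBTB11, Psmc2 and Psmc1, had no listed ZFP131. In Psme3 both factors peaked within the promoter printed above, with ZFP131 events 42 and 207 bases before the start site, of 1281 and 1260 reads, and ZBTB11 events 193 bases before and 8 bases after it, of 827 and 363 reads. When only events at or above the median fold were kept, 5 members remained, against 4.21% of all genes. The lists differ in length, with 22448 ZBTB11 and 3637 ZFP131 events, and reads were compared within a list.

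**Figure D1:**
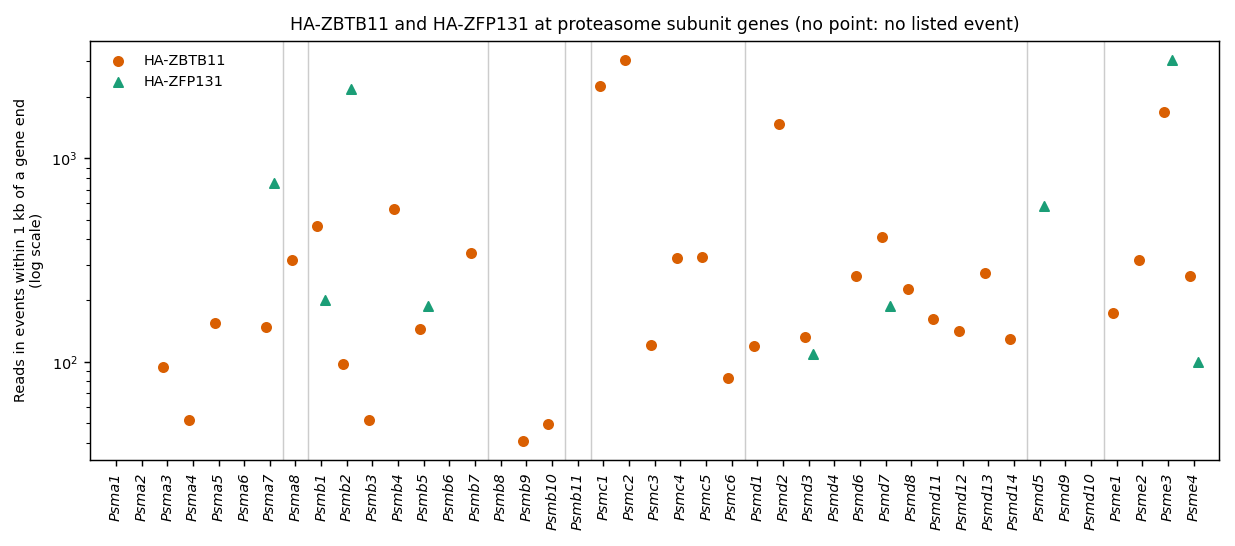
Reads in HA-ZBTB11 (circles) and HA-ZFP131 (triangles) events within 1 kb of a gene end, summed per member on a log scale, with members grouped by role and no point where no event was listed. Psmc2 is highest for ZBTB11 at 3051 reads and Psme3 for ZFP131 at 3034, and no triangle stands over the 6 ATPase genes.

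NELF was lower at proteasome genes in Zbtb11KO by the total-read scale, with a median nearer to 0 than that of all genes. Of the 41 members with a region, 15 were called lower and 0 higher by the authors' deposited table (DESeq2 adjusted p under 0.05). This is 36.6% of them, against 55.3% of 13321 genes called lower. The median log2 fold change was -0.69 over the members and -0.97 over all genes tested in the authors' deposited table. The table's median over all regions was -1.04, and with fold changes centred on it 0 members were called. The share of NELF reads in events was 23.1% in wildtype, where the header names 1 library, and 8.4% and 11.7% in the 2 Zbtb11KO libraries, so a fall at all sites and a lower enrichment cannot be told apart.

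The largest called falls were at the immunoproteasome gene Psmb9, at -1.82 (adjusted p = 0.000152, SE 0.40), and the activator gene Psme1, at -1.52 (adjusted p = 0.00225, SE 0.41) in the authors' deposited table. The call at Psmb9 depends on the region. The widest of its 3 regions was at -0.85 (adjusted p = 0.108, SE 0.47) and another at -0.33 (adjusted p = 0.59, SE 0.57) in the authors' deposited table, neither of them called. Next were the ATPase gene Psmc4 at -1.15 (adjusted p = 0.00488, SE 0.34) and Psma3 at -1.15 (adjusted p = 0.0168, SE 0.41) in the authors' deposited table. The Psma3 value is that of the outer gene end. At its inner start site the authors' deposited table gave -0.66 (adjusted p = 0.0758, SE 0.33). At the inner start site of Psma6 it gave, also in the authors' deposited table, -0.99 (adjusted p = 0.0105, SE 0.33). Of the members with most ZBTB11, Psmc2 at -1.04 (adjusted p = 0.0144, SE 0.36) and Psmd2 at -0.95 (adjusted p = 0.0177, SE 0.34) fell in the authors' deposited table. Psme3 at -0.55 (adjusted p = 0.122, SE 0.31) and Psmc1 at -0.53 (adjusted p = 0.145, SE 0.33) did not pass in the authors' deposited table. By role, 8 of 17 ATPase and other cap genes and 3 of 13 alpha and beta ring genes were called lower, against 55.3% of all genes. This split by role was not tested. Among members with a ZBTB11 event 13 of 33 were called, and among those without 2 of 8, and this difference was not tested.

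Listed NELF reads per M reads of the library described all 4 genotypes, without a test. In the order wildtype, Zbtb11KO, Zfp131KO and double knockout, Psmd5 had 38.5, 31.2, 26.2 and 13.8. Psme3 had 25.9, 19.3, 12.6 and 6.22. Psme3, the member with most ZFP131, was lower in Zfp131KO than in Zbtb11KO. Psmc2, with most ZBTB11, had 12.4, 5.72, 8.90 and 2.49, the opposite order of the single knockouts. Psmb2, bound strongly by ZFP131, had 19.2, 13.9, 21.1 and 12.3. It was 1 of 2 members above its wildtype level in Zfp131KO, the other being Psmd6 at 9.38 against 8.21. Psmb9 had 7.53 in wildtype, 1.78 with Zbtb11 deleted and 1.31 with both deleted, and was not listed in Zfp131KO. Psmb3 had 16.7, 4.28 and 4.78 and was not listed in the double knockout. Of the 40 members that had 50 wildtype reads or more, the Zbtb11KO list kept 36, the Zfp131KO list 37 and that of the double knockout 27 (90%, 92.5% and 67.5%, against 72.5%, 74.2% and 49.2% of 12909 genes). Over those still listed, a filter that the change itself affects, the log2 ratio to wildtype had medians of -0.65, -0.54 and -1.48, against -0.91, -0.73 and -1.76 over all genes; scaled by reads in events instead of total reads, the members' medians turned positive, at 0.58, 0.47 and 0.70. The 3 ratios share the wildtype library.

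**Figure D2:**
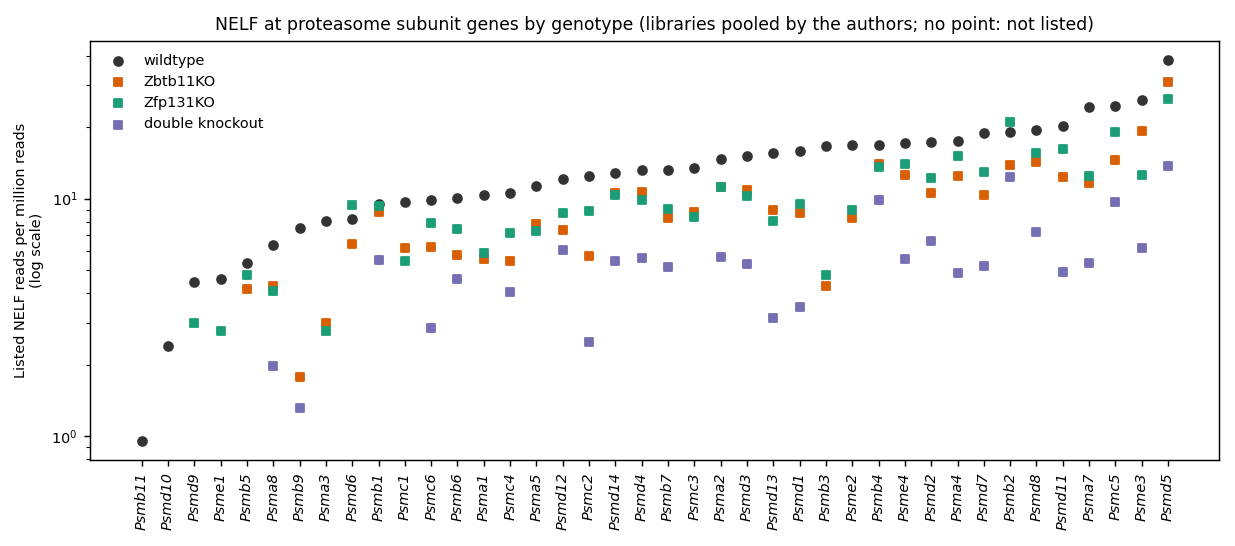
Listed NELF reads per M reads of the library, on a log scale, for the 40 members listed in wildtype, ordered by their wildtype level, with no point where a member was not listed. Wildtype (black circles) lies highest for nearly every member, with Psmb2 and Psmd6 in Zfp131KO as exceptions, and double knockout squares lie lowest where present; scaled by reads in events the medians of all 3 knockouts turn positive.

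H3K4me3 in Zbtb11KO divided the proteasome genes. Of 42 members with a region, 10 rose and 18 fell by the authors' deposited table, against 42.4% of 14238 genes called higher and 24.5% called lower. The median was -0.30 over the members and 0.17 over all genes in the authors' deposited table. Centred on the table's median over all regions (-0.17), 12 members rose and 12 fell. The largest rises were at Psma7 of the alpha ring, at 2.03 (adjusted p = 6.07e-146, SE 0.08), the cap gene Psmd11 at 1.89 (SE 0.09), Psme3 at 1.68 (SE 0.09) and Psma4 at 1.41 (SE 0.11) in the authors' deposited table. The start of Psma7 lay 19 bp from Ss18l1, a chromatin remodelling gene. The largest falls were at the thymus gene Psmb11, at -4.03 (adjusted p = 0.000163, SE 0.97), Psmb3 at -0.90 (SE 0.14), Psmd13 at -0.85 (SE 0.13) and Psmc6 at -0.83 (SE 0.15) in the authors' deposited table. All 8 kept their call and direction in the centred fit.

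Listed reads at the 4 largest rises were close to those of wildtype, a little higher at Psma7 and lower at the other 3. Psma7 had 6846 listed reads in wildtype and 7138 in Zbtb11KO, Psmd11 4596 and 4377, Psme3 4432 and 4117, and Psma4 3060 and 2849. Listed reads are not scaled to library size, and over 13599 genes their median log2 ratio was -0.42, so relative to other genes the 4 lay between 0.31 and 0.48 higher. Across the members the log2 fold changes of the authors' deposited table had a standard deviation of 0.96, and the listed ratios one of 0.47. In Zfp131KO these were 0.39 and 0.45. The order of the members was similar by both measures, with Spearman's rho 0.78 over 42 members in Zbtb11KO and 0.93 in Zfp131KO, where both measures come from the same libraries and members are not replicates. The size of the Zbtb11KO fold changes was therefore read by order. Relative to all genes, the listed H3K4me3 of the members in Zbtb11KO had a median log2 ratio of -0.22, and 12 of 42 lay above the median of all genes.

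Psmc2, the member with most ZBTB11, held 2 neighbouring H3K4me3 regions that differed. The region over its start, shared with Dnajc2 11 bp away, was called higher in Zbtb11KO, at 0.60 (adjusted p = 1.88e-05, SE 0.13) in the authors' deposited table, and the region from 963 bp inside the gene, which holds a second RefSeq start site 1472 bp in, fell by 1.26 (adjusted p = 4.66e-11, SE 0.18) in the authors' deposited table. Listed reads did not show the rise. The domain over the start had 3024 in wildtype and 2161 in Zbtb11KO, where the median log2 ratio over all genes was -0.42. In Zfp131KO the same 2 regions were at 0.41 (adjusted p = 0.000205, SE 0.09) and 0.08 (adjusted p = 0.654, SE 0.11) in the authors' deposited table. Psma3 also differed by site. At the outer end it fell by 0.79 (adjusted p = 0.0003, SE 0.20) in Zbtb11KO and at its inner start site it was at 1.71 (adjusted p = 3.18e-79, SE 0.09) in the authors' deposited table. Listed reads at the inner site were 4895 in wildtype and 4669 in Zbtb11KO. Psma6 at its inner start site was at -0.59 (adjusted p = 2.52e-05, SE 0.13) in Zbtb11KO in the authors' deposited table.

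**Figure D3:**
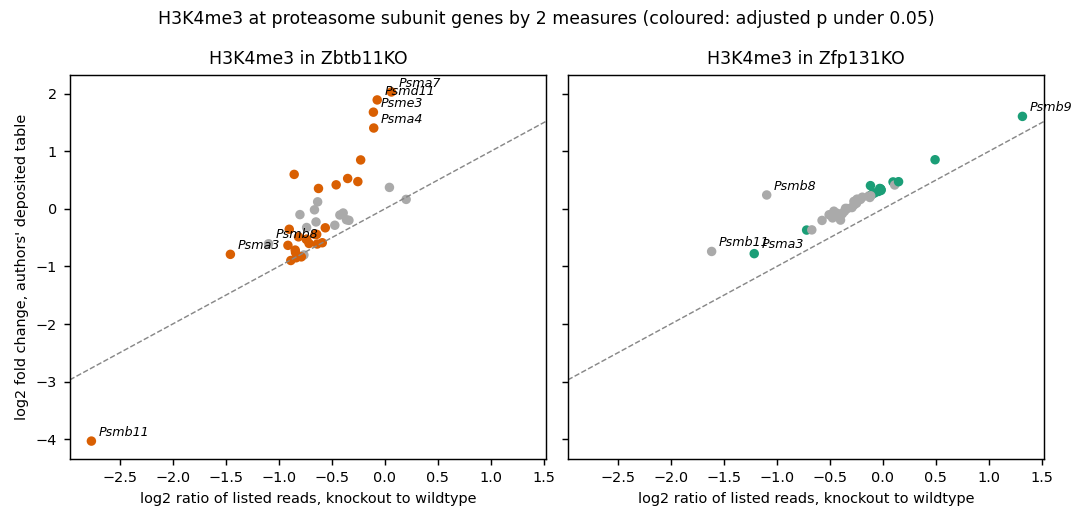
H3K4me3 at each member, with the log2 ratio of listed reads on the horizontal axis and the log2 fold change of the authors' deposited table on the vertical axis, for Zbtb11KO (left) and Zfp131KO (right), where coloured points passed an adjusted p under 0.05 and the dashed line marks equal values. In Zbtb11KO, Psma7, Psmd11, Psme3 and Psma4 lie near 0 on the horizontal axis and far above the line; in Zfp131KO the points lie close to one line and Psmb9 is highest.

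H3K4me3 in Zfp131KO rose at 13 of 42 members and fell at 2 in the authors' deposited table, against 33.5% and 4.18% of 14277 genes, a share near that of all genes. The median was 0.17 over the members and 0.24 over all genes in the authors' deposited table. The leading gene was Psmb9, whose H3K4me3 had 1658 listed reads in wildtype, 1908 and 4132 in the Zbtb11KO and Zfp131KO lines and 5139 in the double knockout. Its Zfp131KO value lay far above the wildtype and Zbtb11KO values. In the authors' deposited table Psmb9 rose by 1.61 (adjusted p = 1.15e-08, SE 0.25) in Zfp131KO, and it was at 0.17 (adjusted p = 0.527, SE 0.19) in Zbtb11KO. Its domain was 1797 bp wide in wildtype and 2888 bp in Zfp131KO, and it covered the near end of Tap1. Psmb8, the neighbouring immunoproteasome gene, had 282, 132, 132 and 210 listed reads in the 4 genotypes. Its value in Zfp131KO was 0.24 (adjusted p = 0.679, SE 0.39) in the authors' deposited table, read from a region of 66 bp. Its larger regions, of 567 bp and of 545 bp beside the start, were at -0.35 (adjusted p = 0.588, SE 0.44) and -0.14 (adjusted p = 0.875, SE 0.56) in the authors' deposited table, and were not called.

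The next rises in Zfp131KO were at the cap gene Psmd6, at 0.86 (adjusted p = 1.44e-19, SE 0.09), the activator gene Psme2 at 0.47 (SE 0.10) and the ATPase gene Psmc4 at 0.47 (SE 0.10) in the authors' deposited table. ATPase genes rose at 4 of 6, other cap genes at 4 of 11 and alpha and beta ring genes at 2 of 13, against 33.5% of all genes. This split by role was not tested. The falls were at Psma3, at -0.78 (adjusted p = 0.00699, SE 0.24), and at Psmd4, a ubiquitin receptor gene, at -0.37 (adjusted p = 0.032, SE 0.14) in the authors' deposited table. At its inner start site Psma3 was at 0.06 (adjusted p = 0.685, SE 0.10) in the authors' deposited table, so its call belongs to the outer end. Of the 9 members with ZFP131, 0 fell, and Psma7 at 0.33 (SE 0.09) and Psmd3 at 0.36 (SE 0.11) rose according to the authors' deposited table. Psme3, which carried most ZFP131, was at -0.36 (adjusted p = 0.0749, SE 0.16) and Psmb2 at 0.08 (adjusted p = 0.612, SE 0.11) in the authors' deposited table. The other 5 lay between -0.19 at Psmb1 and 0.20 at Psmb5 in the authors' deposited table and were not called.

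H3K27ac, a mark of active promoters, was called at few members. In Zbtb11KO 2 of 39 members rose and 1 fell in the authors' deposited table, against 3.70% and 9.94% of 10494 genes. The median was 0.20 over the members and -0.13 over all genes in the authors' deposited table. The beta ring gene Psmb1 had 214 listed reads in wildtype, 361 in Zbtb11KO and 264 in Zfp131KO. It rose by 0.75 (adjusted p = 0.0373, SE 0.29) in Zbtb11KO in the authors' deposited table, over a region of 666 bp. The other 2 calls rested on regions of 46 bp, 2.10 (SE 0.34) at Psma4 and -1.86 (SE 0.39) at the outer start of Psma6 in the authors' deposited table. The main region of Psma4, 1193 bp wide and over its start, was at 0.21 (adjusted p = 0.646, SE 0.30) in the authors' deposited table, and its listed reads were 302 in wildtype and 300 in Zbtb11KO. At the inner start of Psma6 the authors' deposited table gave 0.14 (adjusted p = 0.771, SE 0.30). With the widest region of each gene, Psmb1 was the 1 member called. Psmc2 had 228 listed reads in wildtype, 106 in Zbtb11KO and 227 in Zfp131KO, and was not called in Zbtb11KO. There its region of 714 bp was at -0.56 (adjusted p = 0.165, SE 0.305) in the authors' deposited table. A region of 42 bp with a higher mean was at 0.44 (adjusted p = 0.688, SE 0.72) in the same table.

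In Zfp131KO 1 of 40 members was called lower and 0 higher by the authors' deposited table, against 11.1% of 10571 genes called lower, with a median of -0.11 over the members and -0.15 over all genes. The call was Psme3. It had 706 listed reads of H3K27ac in wildtype, 572 in Zbtb11KO and 104 in Zfp131KO, and its domain was 1185 bp wide in wildtype and 395 bp in Zfp131KO. The Zfp131KO value lay far below both others. In the authors' deposited table its H3K27ac fell by 2.02 (adjusted p = 1.32e-10, SE 0.28) in Zfp131KO, and it was at -0.20 (adjusted p = 0.563, SE 0.23) in Zbtb11KO. The difference between the knockouts was not tested. Of the members with ZFP131, the next lowest in the table were Psmd5, with 444, 464 and 263 listed reads in wildtype, Zbtb11KO and Zfp131KO, and Psma7, with 570, 310 and 387, neither of them called. Psmb2, the second in ZFP131 reads, had 444, 488 and 327.

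H3K27me3 regions lay at 4 members in each table. In Zbtb11KO 0 of 4 were called by DESeq2 in the authors' deposited table, and 0 had an unadjusted p under 0.05 in the region with the highest mean, against 9.97% of 6359 genes called and 1239 of them with an unadjusted p under 0.05. In Zfp131KO 1 of 4 rose, against 9.95% of 6570 genes. That call was Psmb8 at 1.20 (adjusted p = 0.00399, SE 0.33) in the authors' deposited table, from a region of 40 bp with 12 listed reads near its far end. The domain of 3239 bp over its start was at -0.80 (adjusted p = 0.125, SE 0.38) in the authors' deposited table, and its listed reads were 1280 in wildtype, 833 in Zbtb11KO and 434 in Zfp131KO. Psmb9 had 882 listed reads in wildtype, 576 in Zbtb11KO and 487 in Zfp131KO. Its 2 main regions were at -0.08 (adjusted p = 0.903, SE 0.36) and -0.90 (adjusted p = 0.0616, SE 0.35) in Zbtb11KO in the authors' deposited table. In Zfp131KO they were at -0.12 (adjusted p = 0.848, SE 0.40) and -0.88 (adjusted p = 0.176, SE 0.47) in the authors' deposited table. At Psmb8 in Zbtb11KO the start domain was at -0.29 (adjusted p = 0.57, SE 0.32) and the lowest adjusted p belonged to a region of 42 bp near the far end, at 1.11 (adjusted p = 0.0667, SE 0.43), in the authors' deposited table. Psme3 had no listed H3K27me3 in wildtype or Zbtb11KO and a domain of 68 bp with 20 reads in Zfp131KO, 966 bp from its start. Its value was 4.66 (adjusted p = 0.148, SE 2.33) in the authors' deposited table.

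**Figure D4:**
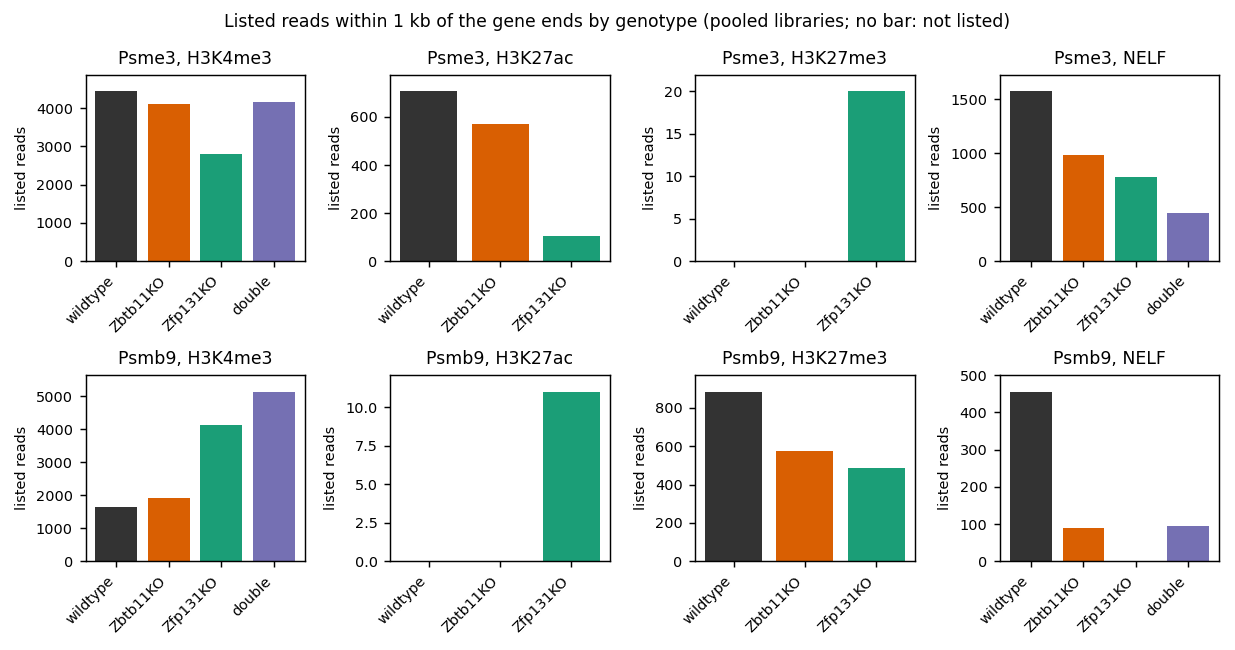
Listed reads within 1 kb of the gene ends of Psme3 (top) and Psmb9 (bottom) for H3K4me3, H3K27ac, H3K27me3 and NELF, with 1 bar per genotype from pooled libraries, axes that differ between panels, and no bar where nothing was listed. H3K27ac at Psme3 has 706 reads in wildtype and 104 in Zfp131KO, and H3K4me3 at Psmb9 has 1658 in wildtype and 4132 in Zfp131KO.

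SIN3A, a scaffold of a histone deacetylase complex, was called at few proteasome genes. In Zbtb11KO 1 of 41 members was called higher and 0 lower by the authors' deposited table, against 5.60% of 13766 genes called higher. That member was Psmd6, at 0.94 (adjusted p = 0.00914, SE 0.26) in the authors' deposited table, with 181 listed reads in wildtype and 271 in Zbtb11KO. In Zfp131KO 2 of 40 rose, against 5.62% of 12866 genes. They were the ATPase gene Psmc1, at 0.65 (adjusted p = 0.0233, SE 0.19), and the testis gene Psma8, at 0.92 (adjusted p = 0.0385, SE 0.30), in the authors' deposited table. Centred on the table's median, the region with the highest mean at Psme3 was also called lower, at -0.54 (adjusted p = 0.0465), giving 2 rises and 1 fall. Psme3 held 4 SIN3A regions in that table. Without centring, 2 of them fell in the authors' deposited table, one over the start at -0.94 (adjusted p = 2.80e-05, SE 0.17) and one 167 bp before it at -1.30 (adjusted p = 7.52e-06, SE 0.23). The other 2 were at -0.52 (adjusted p = 0.0596, SE 0.18) and -0.49 (adjusted p = 0.135, SE 0.20) and did not pass in the authors' deposited table. Psmc1 also held called SIN3A regions in Zbtb11KO, at 0.69 (adjusted p = 0.0158, SE 0.20) and 0.76 (adjusted p = 0.0373, SE 0.25) in the authors' deposited table. Its region with the highest mean there, at 0.44 (adjusted p = 0.140, SE 0.19), and another at 0.51 (adjusted p = 0.0773, SE 0.19) did not pass in the authors' deposited table. These regions were looked at after the values had been seen. Listed reads for SIN3A in Zfp131KO were not used here, so the direction of its fold changes was not checked against them. CHD4 regions lay at 7 members in Zbtb11KO and 6 in Zfp131KO, and DESeq2 called 0 of them in either of the authors' deposited tables, against 2.74% of 3144 and 7.19% of 3909 genes. At an unadjusted p under 0.05 the counts were 0 and 2, against 269 of the 3144 and 735 of the 3909 genes.

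**Figure D5:**
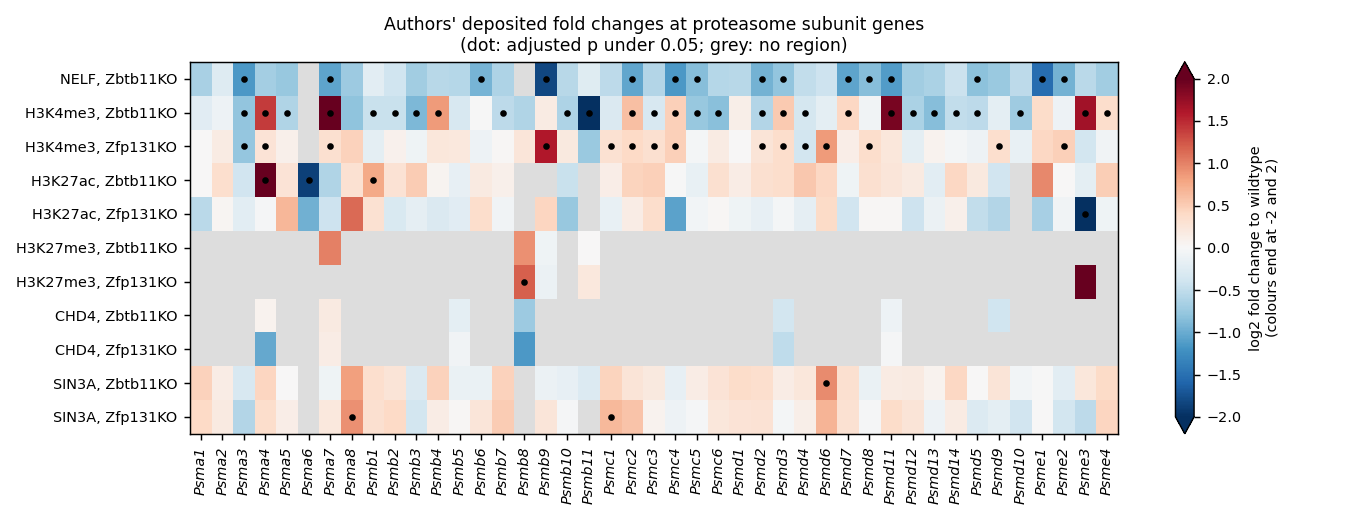
Log2 fold change of each member to wildtype in the authors' deposited tables, with members in columns by role, tables in rows, red for higher and blue for lower, black dots for an adjusted p under 0.05 and grey where no region lay within 1 kb. NELF in Zbtb11KO is blue throughout, with 15 dots that all vanish when fold changes are centred on the table median, while the H3K27ac, SIN3A and CHD4 rows hold few dots.

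In the double knockout H3K4me3 was described from listed reads, without a test. At 41 members with reads in both genotypes the median log2 ratio to wildtype was 0.63, against 0.72 over 13652 genes, or -0.09 relative to all genes. The members' median distance from the ratio of all genes was 0.16, and a few lay farther off. Psma8 lay 1.05 above the median of all genes, with 446 reads in wildtype and 1521 in the double knockout, and Psmb9 0.91 above. Psmb8 lay at -1.14 and Psmb5 at -1.11, the latter with 1461 and 1116 reads. Next were Psme1 at -0.85, Psmc6 at -0.84, Psme3 at -0.81 and Psme2 at -0.66. Psme4 was thus the activator gene on the other side, at 0.20, with 4434 reads in wildtype and 8438 in the double knockout. Psmb11, with 245 reads in wildtype, was not listed in the double knockout.

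Of 24 other genes of the proteasome pathway, 15 had a ZBTB11 event and 9 a ZFP131 event. For ZBTB11 the share was 35.9% of all protein-coding genes and 53.4% of those with H3K4me3. For ZFP131 these shares were 10.2% and 15.3%. The assembly chaperone gene Psmg3 had 3109 ZBTB11 reads and no listed ZFP131, more ZBTB11 than any subunit gene. Psmg1, another assembly chaperone gene, had 2476, Pomp, the maturation factor gene of the core, 1621, and Nploc4, a cofactor gene of the Vcp unfoldase, 1324. Usp14, a deubiquitinase gene of the cap, had the most ZFP131, with 936 reads. Listed H3K4me3 of Psmg3 was 2397 reads in wildtype, 2730 in Zfp131KO, 170 in Zbtb11KO and 631 in the double knockout. Zbtb11KO and the double knockout were thus the low genotypes. In Zbtb11KO its H3K4me3 fell, at -3.66 (adjusted p = 3.43e-36, SE 0.29), as did its H3K27ac, at -2.25 (adjusted p = 7.07e-06, SE 0.43), its SIN3A, at -1.84 (adjusted p = 1.35e-06, SE 0.31), and its NELF, at -1.62 (adjusted p = 0.000578, SE 0.39), in the authors' deposited tables. H3K27me3 was not listed at Psmg3 in wildtype, and the region of 384 bp over its start rose by 3.36 (adjusted p = 6.64e-05, SE 0.69) in Zbtb11KO in the authors' deposited table. A region of 40 bp with a higher mean was not called, at 4.40 (adjusted p = 0.215, SE 2.38) in the authors' deposited table. In Zfp131KO H3K4me3 at Psmg3 rose by 0.53 (adjusted p = 1.24e-06, SE 0.10) in the authors' deposited table.

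Across the pathway list NELF fell at 11 of 22 genes in Zbtb11KO, led by adjusted p by Nploc4 at -1.82 (adjusted p = 2.46e-05, SE 0.35), Psmg3 and Psmg2 at -1.29 (adjusted p = 0.00121, SE 0.33) in the authors' deposited table. This is near the 55.3% of all genes called lower, and centred on the table median 0 of the 22 were called. H3K4me3 in Zbtb11KO rose at 7 and fell at 7 of 22, against 42.4% and 24.5% of all genes, or 9 and 4 when centred, with 2.07 (SE 0.09) at the unfoldase gene Vcp and 1.78 (SE 0.09) at Psmg2 in the authors' deposited table. Listed reads were 4283 in wildtype and 4101 in Zbtb11KO at Vcp, and 4695 and 4315 at Psmg2. The size of these fold changes was therefore also read by order. In Zfp131KO H3K4me3 rose at 10 and fell at 0 of 22, against 33.5% and 4.18% of all genes, with 0.55 (SE 0.09) at Ufd1 and 0.79 (SE 0.12) at the ubiquitin gene Ubb, from regions of 1390 bp and 95 bp, in the authors' deposited table. Listed H3K4me3 reads went the other way at both genes. They were 7154 in wildtype and 3733 in Zfp131KO at Ufd1, and 6861 and 4151 at Ubb. Over all genes the median log2 ratio of listed reads in Zfp131KO was -0.10. H3K27ac fell at 2 of 21 in Zbtb11KO by the authors' deposited table, among them Psmg3, against 9.94% of all genes, and at 1 when centred. SIN3A rose at Usp14 in both knockouts, by 0.82 (adjusted p = 7.82e-05, SE 0.16) in Zbtb11KO and 0.81 (adjusted p = 0.000311, SE 0.17) in Zfp131KO in the authors' deposited tables, which share the wildtype libraries. It also rose at Sem1, a small cap subunit gene, in Zfp131KO, by 0.91 (adjusted p = 0.0438, SE 0.30) in the authors' deposited table.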

How the data were processed

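Per the submitters' processing notes, reads were mapped to mm10 with Bowtie 1.0.1, and DESeq2 1.28.1 and bedtools were used; their settings are not given in the sources used here. Per the file headers, binding events were called by the authors with MultiGPS, and the deposited signal is the number of reads assigned to an event, beside a log2 fold over control. The deposited domain lists give read counts per domain with a p-value. The deposited tables compare a knockout with wildtype and give a mean signal, a log2 fold change, its SE and DESeq2 p-values. Positive values mean higher in the knockout, checked against regions listed in 1 genotype only. For SIN3A in Zfp131KO this check could not be made, and the same direction was assumed.

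From these, the region with the highest mean within 1 kb (1000 bp) of either gene end was taken per gene from RefSeq GRCm38.p6 and called at the authors' adjusted p under 0.05, which covers the whole table. Missing adjusted p-values stayed missing. Ends holding H3K4me3 had at least 33.3% of the reads of the better end. Domains of all genotypes were joined before histone ratios were taken, from 50 wildtype reads up. No count model was run, since counts per library were not used here. The NELF table labelled Zfp131KO was byte-identical to that of Zbtb11KO, and the SIN3A event list of Zfp131KO to that of CHD4, so neither was used. All 18009 events of the Zbtb11KO NELF list bound regions of the NELF table, and 6.72% of those of Zfp131KO did, so the table was read as Zbtb11KO. All 12504 events of the list shared by CHD4 and SIN3A bound regions of the CHD4 table and 49.4% those of the SIN3A table, so its label, CHD4, is less sure, and its reads are not printed. The number of columns that matched no sample was 0. Python 3.11.15 and matplotlib were used, and the centred test was tested on simulated data. Members and lists were chosen with earlier results of these data known. Named are the members with ZFP131, the 6 with most ZBTB11, the member without wildtype H3K4me3 and the called members of each table, or the 4 largest changes per direction at or above the table's median signal where more than 6 were called, and up to 3 called pathway genes per table by adjusted p, of which 1 is not reported here. Psmb9, Psmg3 details and the inner start sites were added after values were seen. Settings tried were a threshold of 0.01, a window of 500 bp, ends holding H3K4me3, the nearest or widest region, start sites, centred fold changes, events by fold, scaling by reads in events and 200 wildtype reads.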

Additional observations from a re-analysis of the deposited data

How the results depend on the processing

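Of 116 recomputed values for 25 results, 101 stayed within 1.5 times the count or 0.1 on the log2 scale. With an adjusted p under 0.01, NELF calls in Zbtb11KO went from 15 to 6, H3K4me3 calls in Zfp131KO from 15 to 8 and SIN3A calls in Zfp131KO from 2 to 0. Centred on the table median, NELF calls went to 0, since the general fall is removed. For H3K27me3 in Zfp131KO the count went from 1 to 0 with ends holding H3K4me3, with the nearest region and with the widest region, and SIN3A in Zfp131KO from 2 to 1 with the nearest region. The widest region, an alternative chosen after seeing the data as were the added start sites, gave 1 in place of 3 for H3K27ac in Zbtb11KO and 2 in place of 1 for SIN3A in Zbtb11KO. Events at or above the median fold left 13 members with ZBTB11 in place of 33 and 5 with ZFP131 in place of 9. Scaled by reads in events, the median log2 ratios of NELF reversed, from -0.65 to 0.58 in Zbtb11KO, -0.54 to 0.47 in Zfp131KO and -1.48 to 0.70 in the double knockout; the cause was not tested. The start sites gave 34 members with ZBTB11 and 43 with wildtype H3K4me3. No paired analysis was possible because the files hold no value per region and library, and leaving out each replicate was not run for the same reason. Regions of 40 and 46 bp decide 3 single calls, at Psma4, Psma6 and Psmb8.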

Other observations

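Psmd6, a cap subunit gene, was the 1 member called for SIN3A in Zbtb11KO and was also called for H3K4me3 in Zfp131KO. It was chosen after its values were seen. Its H3K4me3 had 2250 listed reads in wildtype, 1753 in Zbtb11KO, 3167 with Zfp131 deleted and 3142 with both deleted, and its H3K27ac 188, 227 and 128 in the first 3. Its SIN3A value in Zfp131KO was also positive in the authors' deposited table, at 0.68 (adjusted p = 0.0984, SE 0.26). ZBTB11 had 264 reads there and ZFP131 was not listed. Psmc1 was called higher for both H3K4me3, at 0.30 (adjusted p = 0.0218, SE 0.11), and SIN3A, at 0.65 (adjusted p = 0.0233, SE 0.19), within Zfp131KO in the authors' deposited tables. The activator genes Psme1 and Psme2 lie on chromosome 14, and both had fewer listed H3K27ac reads in Zbtb11KO than in wildtype, 91 against 136 and 195 against 249. Over all genes the median log2 ratio of listed H3K27ac was -0.36 in Zbtb11KO, and relative to it Psme1 lay at -0.22 and Psme2 at 0.01. The fold change of Psme1 in the authors' deposited table had the opposite sign. Centred on the table's median it was 0.99 (adjusted p = 0.0939), and that of Psme2 was 0.04 (adjusted p = 0.953). Neither gene was called. In Zfp131KO Psme1 and Psme2 had 37 and 267 listed reads.

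The promoters of the 36 members with a sequence had a median GC content of 58.2%, from 45.7% at Psmb10 to 77.0% at Psma7, against 56.7% over all promoters, and a median of 19 CG pairs, against 13.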
